A study of Mus musculus with 16 samples.

Results

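Iron enters most cells bound to transferrin, is reduced in endosomes, is stored in ferritin and leaves through ferroportin. When iron is scarce, the iron regulatory proteins bind hairpins called iron-responsive elements, which protects transferrin receptor mRNA from decay and blocks translation of ferritin and ferroportin mRNA. The liver stores much of the body's iron, and its hepatocytes make hepcidin, the hormone that removes ferroportin from the cell surface. The 10 genes described here cover these steps and were chosen by name out of the 40840 genes in the count table: Tfrc, Tfr2, Slc11a2 and Steap3 for uptake, Fth1, Ftl1 and Ncoa4 for storage, Slc40a1 and Hamp for export and its hormone, and Ireb2 for iron sensing.

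RNA was sequenced from p53−/−; Myc hepatoblasts, a single line of mouse liver progenitor cells without p53, a tumor suppressor, and with overexpressed Myc, an oncogene. Both changes were shared by all groups, so that nothing here compares them with unmodified cells. The cells received sorafenib (8.5 µM), a multikinase inhibitor used against hepatocellular carcinoma, or its vehicle DMSO, for 48 hours or for 7 days, with 4 replicate libraries in each of the 4 groups. The labels do not say whether the replicates came from separate cultures, so the p-values measure only the spread between these libraries. Library totals ran from 16586254 to 30828427 counts. Values are normalized counts, which are counts divided by library size after TMM scaling and set relative to the mean library. A gene was called where the FDR, the Benjamini-Hochberg adjusted p of the quasi-likelihood test in edgeR over the 20444 tested genes, was under 0.05. Each FDR given below comes from that test unless another fit, setting or set of libraries is named. Many fold changes are given with their standard errors (SE).

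The labels call the cell type HCC. Of 9 hepatoblast and hepatocyte markers, Hnf4a was at 0 in all 16 libraries, and Alb (0.166), Ttr (0.717), Apoa1 (1.24) and Afp (3.69) averaged only a few normalized counts. Dlk1, a marker of hepatoblasts, was abundant, at 15866 on average, and Krt18 averaged 254. Col1a1, a collagen of fibroblasts and stellate cells, averaged 54365, while Lrat, which marks stellate cells, was at 0. These lists moved with sorafenib. Of 7 tested hepatoblast and hepatocyte markers, 4 were lower at 48 hours and 6 at 7 days, where 27.7% and 27.9% of all tested genes were lower. Their summed level was 31880 to 33399 normalized counts in DMSO and 10031 to 11765 with sorafenib at 48 hours, and 16501 to 18397 in DMSO and 4179 to 4348 with sorafenib at 7 days, nearly all of it Dlk1. Of 4 tested fibroblast and stellate markers, 2 were higher and 2 lower at both times, with sums of 43660 to 46413 and 79618 to 86026 at 48 hours and of 42209 to 44741 and 52260 to 54132 at 7 days. These sums were nearly all Col1a1. Col1a1 and Col1a2 were the higher genes, and Pdgfra and Pdgfrb the lower ones. Of 3 tested endothelial markers, 2 were higher at both times, against 26.9% (48 hours) and 28.9% (7 days) of all tested genes. Without sorafenib 48 hours replicate 2, described next, 1 was higher at 48 hours. The endothelial sum was 45.9 to 77.6 normalized counts in DMSO and 119 to 151 with sorafenib at 48 hours, and 33.5 to 50.1 and 195 to 230 at 7 days. Most of it was Kdr, which averaged 48.5 and 122 at 48 hours and 31.3 and 197 at 7 days. Stab2, the other higher gene, averaged 7.01, and Pecam1 was not called at either time (FDR 0.178 and 0.462). The part of these markers in the results below was not tested. In bulk RNA, fewer cells of a type and less RNA per cell cannot be told apart.

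One library stood apart by chromosome. In sorafenib 48 hours replicate 2, the counts relative to the other 3 replicates were 1.051 to 1.075 on chromosomes 1 to 14, by the median over genes, and 0.641 to 0.649 on chromosomes 15 to 19 and X. Tfrc (chromosome 16), Slc11a2 (chromosome 15) and Fth1 (chromosome 19) lie in the lowered part, with ratios of 0.637, 0.692 and 0.652. Tfr2 had a ratio of 0.560 on chromosome 5, from few counts. The other 5 members with tested counts had ratios between 0.954 and 1.11. The cause of the step was not tested. The sorafenib responses of members in the lowered part, and of Ireb2 at 48 hours, are given with and without this library. So are the list counts that change with it. Without it, the log2 fold changes at 48 hours were 0.69 for Ftl1, −0.56 for Ncoa4, −0.61 for Slc40a1, −0.23 for Steap3 and 0.04 for Tfr2. The calls of these genes did not change. Their differences between 7 days and 48 hours, and that of Ireb2, are given with it and stayed called without it.

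**Figure D1:**
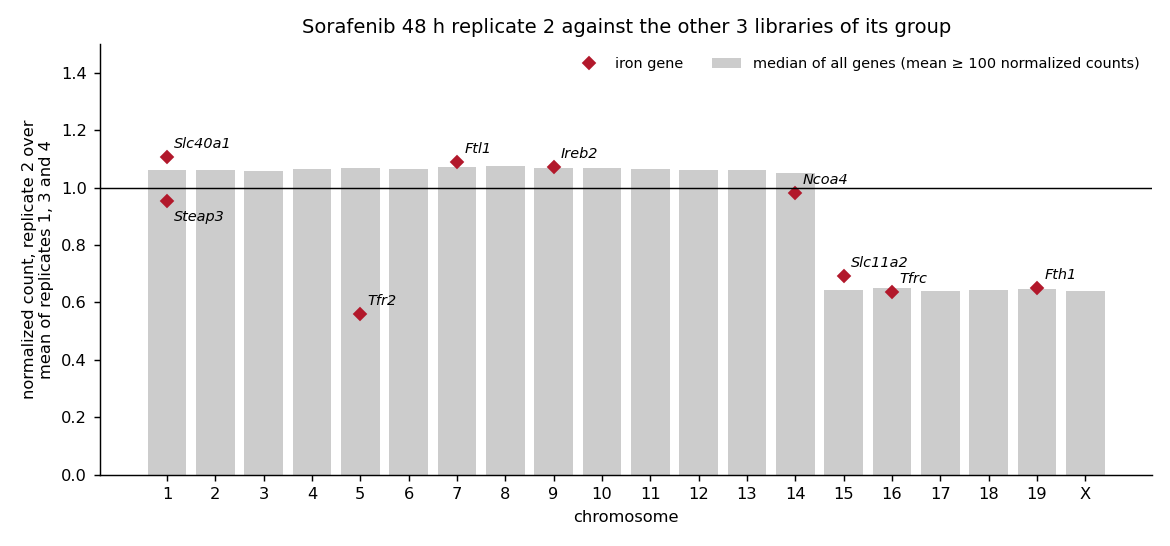
Ratio of the normalized count in sorafenib 48 hours replicate 2 to replicates 1, 3 and 4, by chromosome. Grey bars are medians of all genes averaging 100 normalized counts or more, and red diamonds are the single iron genes. Bars lie at 1.051 to 1.075 through chromosome 14 and at 0.641 to 0.649 from chromosome 15 on, and Slc11a2, Tfrc and Fth1 lie with the lower bars.

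The iron-responsive elements are shown first, since the iron regulatory proteins are known to act through them. Both untranslated regions of each member's GENCODE vM39 transcripts were searched on the mRNA strand of GRCm39 for a CAGTGN loop closed by 5 paired stem bases with G-U pairs allowed, and a bulged C 6 bases before the loop. The pattern was found in 4 of the 10 members. Among the main transcripts of all protein-coding genes, 148 of 22263 (0.665%) held it in an untranslated region. Each match is written as DNA, 27 bases long from 5′ to 3′ along the mRNA, with the loop in capitals.
Tfrc 3′ UTR site 1, chr16:32450038-32450064, plus strand: attatcggaagCAGTGCcttccataat
Tfrc 3′ UTR site 2, chr16:32450417-32450443, plus strand: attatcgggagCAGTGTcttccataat
Tfrc 3′ UTR site 3, chr16:32450482-32450508, plus strand: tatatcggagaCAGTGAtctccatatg
Tfrc 3′ UTR site 4, chr16:32450529-32450555, plus strand: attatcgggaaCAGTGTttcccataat
Fth1 5′ UTR, chr19:9960097-9960123, plus strand: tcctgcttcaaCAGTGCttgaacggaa
Ftl1 5′ UTR, chr7:45109204-45109230, minus strand: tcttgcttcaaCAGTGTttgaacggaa
Slc40a1 5′ UTR, chr1:45964626-45964652, minus strand: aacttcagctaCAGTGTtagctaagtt
Tfrc held 4 matches, all in the 3′ UTR, and the other 3 genes held 1 each, in the 5′ UTR. The search allowed no mismatch in the stem and no other loop. Elements of other forms would be missed, so a gene without a match may still hold an element, and Tfrc may hold more. A match describes the sequence only, and binding was not measured.

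Divided by the length of the main transcript, the levels had the same order in all 4 groups: Ftl1, Fth1, Tfrc, Ireb2, Slc11a2, Ncoa4, Slc40a1, Steap3, Tfr2 and Hamp. In DMSO at 48 hours, Ftl1 stood at 20844 ± 826 (SD, n = 4) normalized counts per kilobase, Fth1 at 13991 ± 316 and Tfrc at 4272 ± 116. In the same group, Ireb2 (848 ± 31.04), Slc11a2 (405 ± 12.8), Ncoa4 (307 ± 12.8) and Slc40a1 (275 ± 12.3) followed on this scale. Steap3 (9.55 ± 0.821) and Tfr2 (4.22 ± 0.371) were far lower. Neighbours in the order did not overlap between libraries in any group except Tfrc and Ireb2 with sorafenib at 48 hours, where replicate 2 was the library of overlap. The order of Tfr2 and Hamp rests on counts near the floor and is uncertain. In DMSO at 7 days, Tfr2 had 15 counts in all. The order and the distances depend on the length used. Per kilobase of the union of all annotated exons, Ncoa4 (137) stood above Slc11a2 (110.5) in DMSO at 48 hours and below it in the other groups (92.5 against 111.5 with sorafenib at 48 hours, 123 against 148 in DMSO and 106 against 132 with sorafenib at 7 days).

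After 48 hours of sorafenib, 5 of the 9 tested members were called, Ftl1 and Fth1 higher and Tfrc, Ncoa4 and Slc40a1 lower, against 54.6% of all tested genes (26.9% higher and 27.7% lower). After 7 days, 8 of 9 were called, 4 higher and 4 lower, against a background of 56.8% (28.9% higher and 27.9% lower). Hamp was too low to test. Without replicate 2, the counts were 7 (3 higher and 4 lower) against 57.0% (28.5% and 28.6%), and 9 (4 higher and 5 lower) against 61.9% (31.2% and 30.7%). The members' median log2 fold change was −0.10 at 48 hours and −0.16 at 7 days, beside −0.05 and 0.02 over all tested genes. With so large a background, the count of members called does not set them apart from other genes, and what follows describes the single genes.

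**Figure D2:**
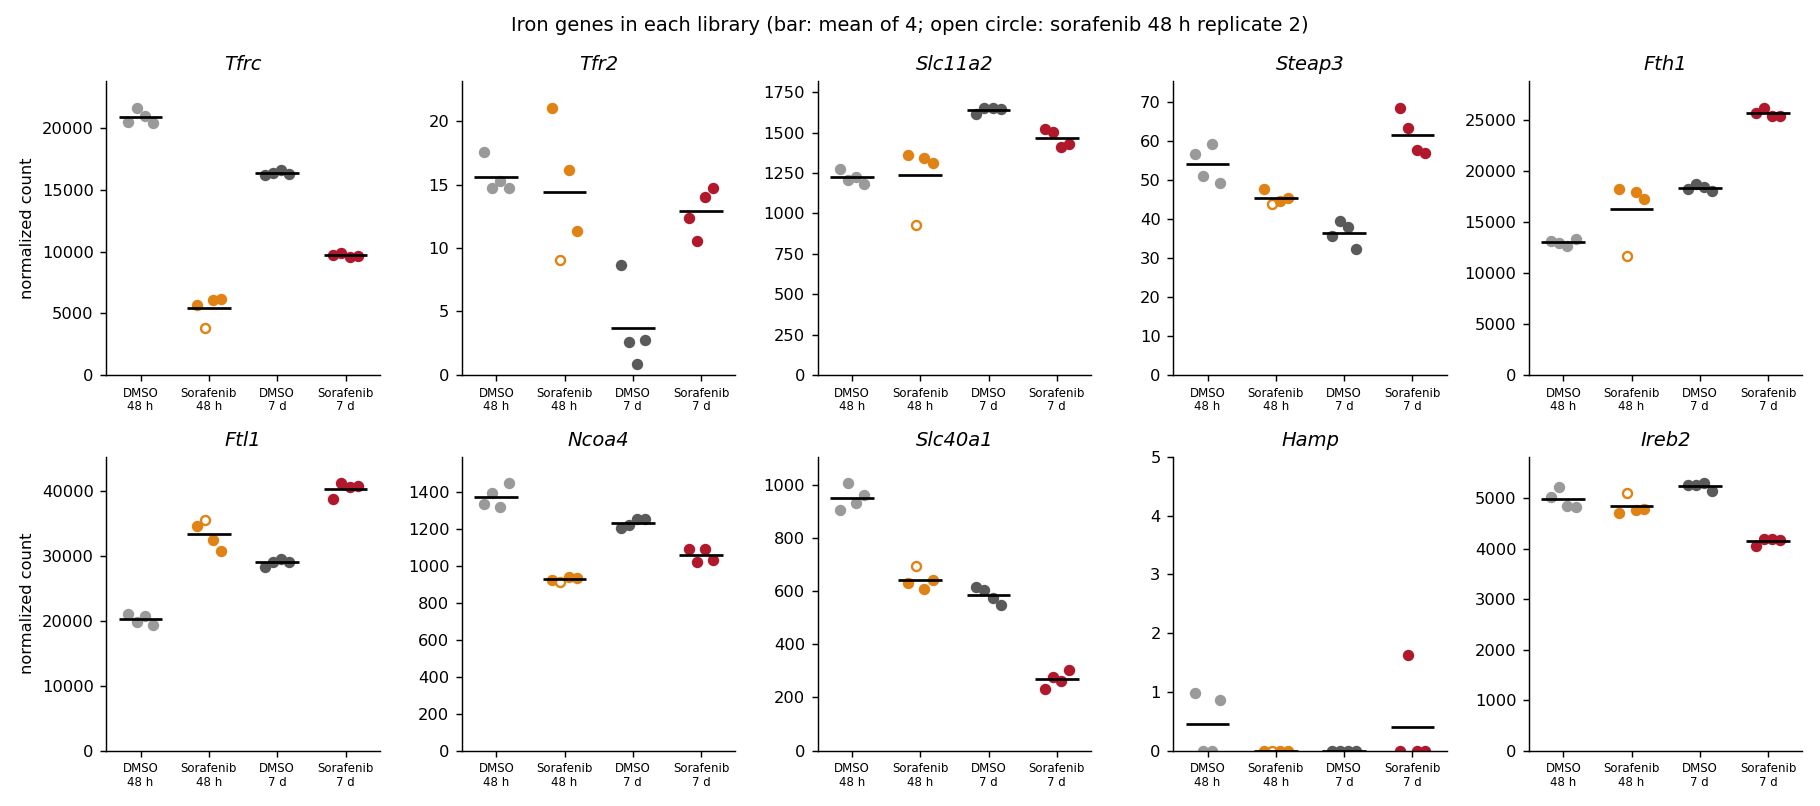
Normalized counts of the 10 iron genes in each of the 16 libraries, by group. Points are libraries, horizontal bars are means of 4, the open circle is sorafenib 48 hours replicate 2, and each axis starts at 0. Tfrc and Slc40a1 were lower and Ftl1 higher in each library with sorafenib than in each library with DMSO of the same time point, and Hamp was at 2 counts or fewer in each library.

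Tfrc encodes the transferrin receptor, the main port of iron entry (chr16:32427556-32451612, plus strand). At 48 hours, its normalized counts were 20555, 21673, 21013 and 20411 with DMSO and 5680, 3800, 6088 and 6125 with sorafenib. The groups were far apart, and the lowest value was that of replicate 2. Tfrc fell by 1.95 on the log2 scale (SE 0.0944, FDR 4.98e-13), and by 1.81 (SE 0.0293, FDR 7.07e-44), or 3.50-fold, without replicate 2.

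At 7 days, Tfrc was at 16214, 16384, 16597 and 16316 with DMSO and at 9694, 9927, 9535 and 9679 with sorafenib. The groups again did not overlap, with a smaller gap than at 48 hours. The log2 fold change was −0.75 (SE 0.0913, FDR 5.28e-07), and −0.75 (SE 0.0255, FDR 2.05e-30) in the fit without replicate 2 of sorafenib at 48 hours. The decrease was smaller at 7 days by 1.19 on the log2 scale (SE 0.129, FDR 3.54e-07 for the difference of the responses), or 1.05 without replicate 2. In DMSO, Tfrc was also lower at 7 days than at 48 hours (log2 fold change −0.35, FDR 0.0028).

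Erythroid precursors also express Tfrc strongly. In a list of 6 erythroid markers, Hba-a1, Hba-a2 and Hbb-bt were at 0 in all libraries, and the summed level was 20.5 to 42.3 normalized counts in DMSO and 4.21 to 13.6 with sorafenib at 48 hours, nearly all from the erythropoietin receptor gene Epor. At 7 days the sum was 8.63 to 14.6 in DMSO and 7.87 to 10.1 with sorafenib. Of the 6, only Epor was tested, and it was lower at 48 hours (log2 fold change −1.80, FDR 6.81e-05).

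Tfr2 encodes the second transferrin receptor, a sensor of iron-loaded transferrin in hepatocytes (chr5:137568087-137586343, plus strand). Its level was close to the counting floor, with 15 counts in all over the 4 DMSO libraries of 7 days. Normalized counts at 48 hours were 17.6, 14.8, 15.3 and 14.7 with DMSO and 21.1, 9.07, 16.2 and 11.4 with sorafenib, and these groups overlapped (log2 fold change −0.10, SE 0.317, FDR 0.819). At 7 days they were 8.65, 2.57, 0.863 and 2.78 with DMSO and 12.4, 10.6, 13.99 and 14.8 with sorafenib.

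The DMSO libraries of 7 days were the low ones, and the sorafenib libraries lay in the range of 48 hours. Summed over libraries, 55 counts with sorafenib against 15 with DMSO gave a ratio of 3.71 (95% exact interval 2.07 to 7.07, counting error only). The fitted log2 fold change was 1.85 (SE 0.412, FDR 0.000687), and it was 2.58 without DMSO 7 days replicate 1, the highest of the DMSO libraries. Between the vehicle groups, 15 counts at 7 days against 67 at 48 hours gave a ratio of 0.223 (0.118 to 0.395). The responses at the different times differed by 1.95 on the log2 scale (FDR 0.00579).

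Slc11a2 encodes DMT1, the transporter that carries ferrous iron across membranes, including out of endosomes (chr15:100285776-100322953, minus strand). At 48 hours, it was at 1275, 1209, 1227 and 1183 with DMSO and at 1361, 925, 1342 and 1311 with sorafenib. The 925 of replicate 2 lay below all DMSO libraries and the other 3 lay above them. With it, the log2 fold change was 0.02 (SE 0.0785, FDR 0.857), and without it 0.13 (SE 0.0379, FDR 0.00291), or 1.09-fold. The call thus depended on 1 library.

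At 7 days, Slc11a2 was at 1615, 1654, 1650 and 1649 with DMSO and at 1522, 1503, 1409 and 1430 with sorafenib. The groups did not overlap. The log2 fold change was −0.16 (SE 0.0757, FDR 0.0726, not called) in the fit of all 16 libraries and −0.17 (SE 0.0327, FDR 1.8e-05) in the fit without replicate 2 of sorafenib at 48 hours. Without that library, the responses at 48 hours and 7 days differed by −0.29 (FDR 2.33e-06), and with it by −0.18 (FDR 0.21).

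Steap3 encodes the ferrireductase that reduces iron in endosomes (chr1:120118487-120200435, minus strand). It was at 56.7, 51.2, 59.2 and 49.3 normalized counts with DMSO and at 47.7, 43.9, 44.7 and 45.4 with sorafenib at 48 hours. The ranges were apart (two-sided exact permutation p = 0.0286, the smallest that 4 against 4 allow), but the fit did not call the gene (log2 fold change −0.25, SE 0.144, FDR 0.16). At 7 days it was at 35.7, 39.4, 37.98 and 32.5 with DMSO and at 68.6, 63.4, 57.7 and 57.1 with sorafenib. All sorafenib libraries were then higher, by 0.75 on the log2 scale (SE 0.115, FDR 1.09e-05), a response 1.00 above that at 48 hours (SE 0.165, FDR 6.46e-05).

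Fth1 and Ftl1 encode the heavy and light chains of ferritin, the shell that stores iron. The heavy chain oxidizes iron as it enters. Both genes have many processed copies elsewhere, and reads that match a copy make their counts uncertain. Fth1 (chr19:9957911-9962462, plus strand) was at 13104, 12961, 12615 and 13312 with DMSO and at 18224, 11606, 17944 and 17269 with sorafenib at 48 hours. Replicate 2 was below every DMSO library and the other 3 were above all of them. The log2 fold change was 0.32 (SE 0.0882, FDR 0.00397) with replicate 2 and 0.45 (SE 0.0269, FDR 1.8e-20) without it, and it was not called when the fit held the 8 libraries of 48 hours alone (0.30, FDR 0.0774).

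At 7 days, Fth1 was at 18162, 18735, 18403 and 17974 with DMSO and at 25604, 26155, 25313 and 25363 with sorafenib. The groups did not overlap, and the log2 fold change was 0.48 (SE 0.088, FDR 8.73e-05). In the fit without replicate 2 of sorafenib at 48 hours it was 0.48 (SE 0.0249, FDR 6.72e-23). The difference between the responses at the different times was 0.16 (SE 0.124, FDR 0.353), or 0.03 (SE 0.0367, FDR 0.577) without replicate 2. In DMSO, Fth1 was also higher at 7 days than at 48 hours, by 0.50 (FDR 8.73e-05), so that the DMSO libraries of 7 days were about level with the 3 unlowered sorafenib libraries of 48 hours.

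Ftl1 (chr7:45107367-45109308, minus strand) was at 21009, 19772, 20717 and 19295 with DMSO and at 34573, 35492, 32401 and 30724 with sorafenib at 48 hours. At 7 days it was at 28291, 29022, 29395 and 29060 with DMSO and at 38715, 41090, 40609 and 40774 with sorafenib. All sorafenib libraries exceeded the DMSO libraries of their time point. The log2 fold change was 0.72 (SE 0.0394, FDR 3.35e-12) at 48 hours and 0.48 (SE 0.0393, FDR 1.87e-09) at 7 days, which differed by −0.24 (FDR 0.00153). That difference was not called when libraries were scaled by total counts only (−0.15, FDR 0.0749).

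Ncoa4 encodes the receptor that brings ferritin to autophagosomes for breakdown by autophagy, which frees its iron (chr14:31881822-31902234, plus strand). It overlaps Timm23 on the opposite strand, and the strand setting of the counting is not given in the sources used here. At 48 hours, Ncoa4 was at 1338, 1395, 1322 and 1448 with DMSO and at 923, 916, 939 and 936 with sorafenib. At 7 days it was at 1205, 1222, 1255 and 1254 with DMSO and at 1093, 1025, 1093 and 1034 with sorafenib. Each sorafenib library was below each DMSO library at both times. The log2 fold change was −0.57 (SE 0.0392, FDR 1.32e-10) at 48 hours and −0.22 (SE 0.0383, FDR 5.7e-05) at 7 days, a difference of 0.35 (FDR 3.58e-05).

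Slc40a1 encodes ferroportin, the cellular iron exporter (chr1:45947211-45965683, minus strand). Its normalized counts at 48 hours were 906, 1006, 933 and 962 with DMSO and 630, 694, 608 and 642 with sorafenib. At 7 days they were 616, 605, 576 and 546 with DMSO and 233, 276, 263 and 305 with sorafenib. The groups did not overlap at either time, and sorafenib at 7 days held the lowest values. Slc40a1 fell by 0.57 on the log2 scale at 48 hours (SE 0.0621, FDR 1.3e-07) and by 1.12, or 2.17-fold, at 7 days (SE 0.0685, FDR 1.93e-11). The decrease was larger at 7 days (difference −0.55, SE 0.0927, FDR 8.37e-05), whereas those of Tfrc and Ncoa4 were smaller.

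Macrophages express Slc40a1 strongly. Among 6 macrophage markers, Adgre1, Clec4f and Cd5l were at 0 in all libraries. The summed level was 75.6 to 88.0 normalized counts in DMSO and 61.9 to 89.8 with sorafenib at 48 hours, and 125 to 157 in DMSO and 75.2 to 86.9 with sorafenib at 7 days. Of the 2 tested, Csf1r was lower at 7 days (log2 fold change −2.34) and Cd68 was not called. The part of these markers in the change of Slc40a1 was not tested.

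Hamp encodes hepcidin (chr7:30641766-30643990, minus strand). Over all 16 libraries it had 4 counts, with 13 libraries at 0 and at most 2 counts in any of the others. A library at 0 can hide a level of up to 2.57 to 4.54 normalized counts, which is what 3 counts are worth across the libraries at 0, counting error only. No fold change is given, and a difference in Hamp was not detectable at this depth.

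Ireb2 encodes iron regulatory protein 2, which binds the hairpins shown above when iron is low (chr9:54770970-54820011, plus strand). At 48 hours it was at 5017, 5218, 4854 and 4820 with DMSO and at 4699, 5101, 4767 and 4793 with sorafenib. The ranges overlapped through replicate 2, and the log2 fold change was −0.04 (SE 0.0327, FDR 0.313), or −0.07 (SE 0.0275, FDR 0.0365) without it. At 7 days it was at 5263, 5253, 5292 and 5142 with DMSO and at 4056, 4193, 4183 and 4174 with sorafenib. The groups were then apart, with a decrease of 0.34 on the log2 scale (SE 0.0326, FDR 2.33e-08), which differed from the response at 48 hours by −0.29 (FDR 3.52e-05).

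**Figure D3:**
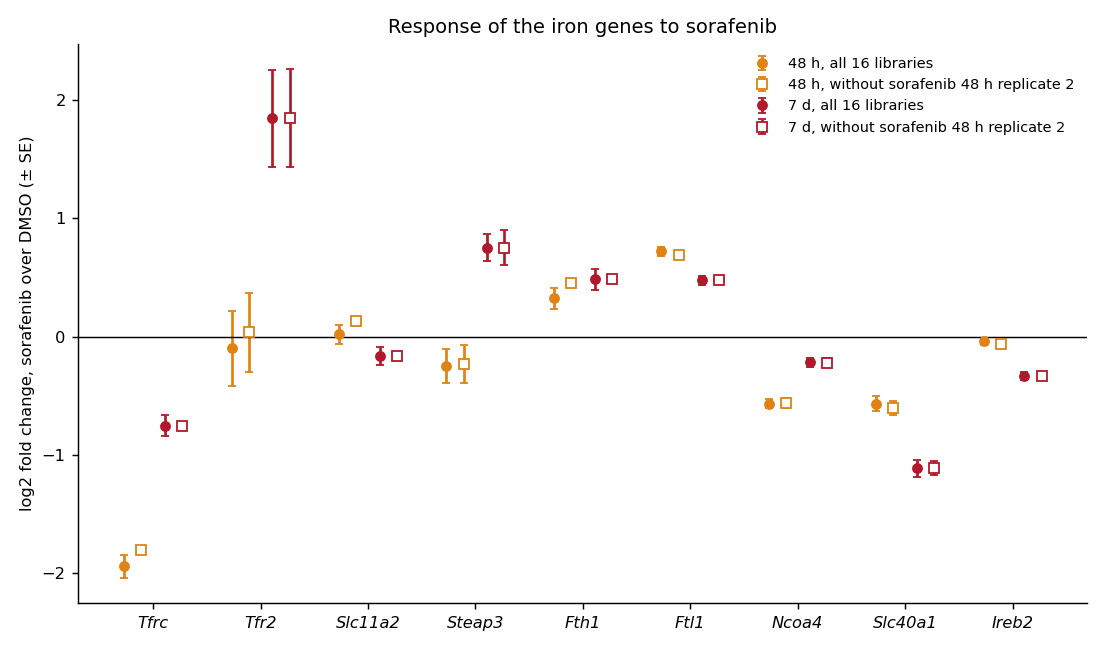
Log2 fold changes of the 9 tested iron genes, sorafenib over DMSO, at 48 hours (orange) and 7 days (red), with bars for ± 1 SE from edgeR. Filled circles come from all 16 libraries and open squares from the fit without sorafenib 48 hours replicate 2. Tfrc lies lowest at 48 hours (−1.95), Slc40a1 lowest at 7 days (−1.12), and Tfr2 has the widest bars.

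Across the difference of the responses, 7 of the 9 tested members were called, 4 positive and 3 negative, against 36.8% of all tested genes (15.5% and 21.3%). Tfrc, Tfr2, Steap3 and Ncoa4 had the higher log2 fold change at 7 days, and Ftl1, Slc40a1 and Ireb2 the lower one. Between the vehicle groups, 8 members were called, 3 higher and 5 lower at 7 days than at 48 hours, against 49.4% (23.9% and 25.5%). Slc11a2 (log2 fold change 0.43), Fth1 (0.50) and Ftl1 (0.52) were higher in the later DMSO libraries, and Tfrc (−0.35), Tfr2 (−2.12), Steap3 (−0.56), Ncoa4 (−0.16) and Slc40a1 (−0.70) were lower. Without replicate 2, 8 members were called for the difference (4 positive and 4 negative) against 43.0% (18.1% and 24.9%), and 9 between the vehicle groups (4 higher and 5 lower) against 55.2% (27.1% and 28.2%). The contrasts share the DMSO libraries, so these values are not independent of one another.

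Ratios within a library do not depend on library size, and a ratio of Fth1 to Tfrc is also free of the step in replicate 2, since both genes lie in the lowered part. The ratios were chosen after the values were seen. Per kilobase, Fth1 was 3.36, 3.15, 3.16 and 3.44 times Tfrc with DMSO at 48 hours and 16.9, 16.1, 15.5 and 14.9 times with sorafenib. At 7 days the ratios were 5.90, 6.03, 5.84 and 5.81 with DMSO and 13.9, 13.9, 13.99 and 13.8 with sorafenib. Replicate 2 lay among its group, and the groups were apart by 2.27 on the log2 scale at 48 hours and by 1.24 at 7 days (two-sided exact permutation p = 0.0286 at each time, the smallest that 4 against 4 allow). At 7 days Fth1 was higher and Tfrc lower in every sorafenib library, so the ratio had to separate there and its p adds nothing to the single genes. At 48 hours the gap in Tfrc was, on the log scale, wider than the whole range of Fth1. The ratio had to separate there as well, and that p adds nothing either.

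The ratio of the ferritin chains overlapped between the groups of 7 days, with Ftl1 at 1.52 ± 0.0308 (SD, n = 4) times Fth1 per kilobase with DMSO and 1.51 ± 0.0425 with sorafenib (exact permutation test, two-sided p = 0.886). At 48 hours it was 1.54, 1.46, 1.57 and 1.39 with DMSO and 1.82, 2.93, 1.73 and 1.71 with sorafenib, where the 2.93 is that of replicate 2. The 4 sorafenib libraries were above the DMSO libraries at 48 hours, also in the 3 replicates without the step. The ratio of Slc40a1 to Tfrc moved in opposite directions. At 48 hours it was 0.0643 ± 0.0021 with DMSO and 0.157, 0.258, 0.141 and 0.148 with sorafenib, where the 0.258 is that of replicate 2, in which Tfrc alone lies in the lowered part, and the other 3 libraries were also above all DMSO libraries. At 7 days it went from 0.0506 ± 0.00291 to 0.0392 ± 0.00432 (two-sided exact permutation p = 0.0286 at each time). The gap in Tfrc at 48 hours was also wider than the whole range of Slc40a1 there, so the p at 48 hours adds nothing to the single genes.

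**Figure D4:**
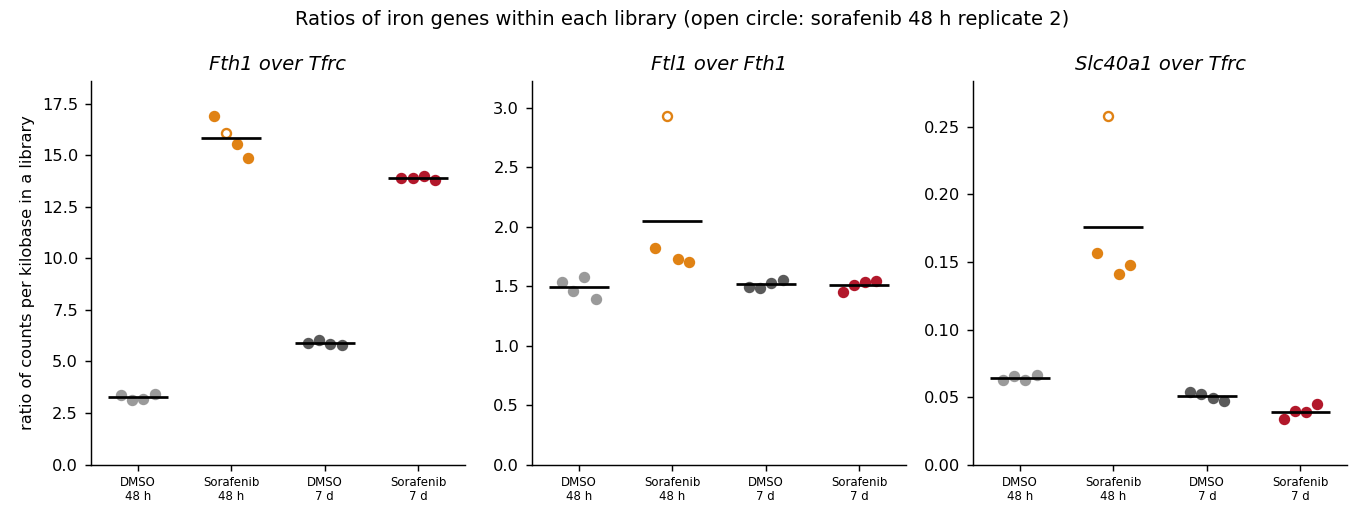
Ratios of iron genes within each library, in counts per kilobase of the main transcript, by group. Points are libraries, bars are means of 4, and the open circle is sorafenib 48 hours replicate 2. Fth1 over Tfrc was 14.9 to 16.9 with sorafenib against 3.15 to 3.44 with DMSO at 48 hours, and Ftl1 over Fth1 overlapped between the groups of 7 days.

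The genes most like each member over the 15 libraries without replicate 2 were ranked among 10646 genes by Pearson's r of log2 values, which reflects the shared group structure of these libraries. Tfrc was most like Lig1 (0.993) and Nfkbiz (0.991), and Slc40a1 most like Ifi30 (0.993) and Pdgfc (0.992). Fth1 was most like Tnrc18 (0.996) and Relt (0.993), and Ftl1 like Ppp1r2 (0.996) and Fgd3 (0.993). For Slc11a2 the nearest were Heatr3 (0.989) and Ccl2 (0.980), for Ncoa4 Hsbp1 (0.981) and Arhgap22 (0.980), and for Ireb2 Morf4l2 and Tiam1 (0.985 each). Tfr2, Steap3 and Hamp were below the level of 100 normalized counts set for this ranking.

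Other genes of iron metabolism were described by lists of 67 genes in all. Among 11 genes of import and iron reduction, 9 were tested, and 5 were higher and 4 lower with sorafenib at both times (median log2 fold change 0.58 at 48 hours and 0.25 at 7 days, beside −0.05 and 0.02 over all genes). Of all tested genes, 26.9% were higher and 27.7% lower at 48 hours, and 28.9% and 27.9% at 7 days, the background for this and the following lists. Trf, which encodes transferrin, fell from 1521 ± 49.6 (SD, n = 4) to 449 ± 32.1 normalized counts at 48 hours and from 1487 ± 54.4 to 200 ± 5.66 at 7 days (log2 fold change −2.89). The metalloreductase gene Steap1 rose from 263 ± 42.1 to 1902 ± 183 at 48 hours (2.86, FDR 6.2e-16), and by 1.92 at 7 days. Its relative Steap2 rose by 1.68 and 1.29.

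Of 6 tested genes of cytosolic iron handling and control of the iron regulatory proteins, 3 were lower at 48 hours and 3 at 7 days, and none was higher, against 27.7% and 27.9% lower over all tested genes. Pcbp1, an iron chaperone that loads ferritin, fell by 0.48 and 0.68 on the log2 scale, and Bola2, which works with glutaredoxin 3 in moving iron-sulfur clusters, by 0.26 and 0.43. Pcbp2, on chromosome 15, fell by 0.22 at 48 hours, or by 0.10 without replicate 2, and had a log2 fold change of 0.06 at 7 days (FDR 0.546). Glrx3 had one of 0.02 (FDR 0.578) at 48 hours and −0.09 (FDR 0.0344) at 7 days. Without replicate 2, 1 gene of the list was higher and 3 lower at 7 days.

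Of 10 tested genes of the ferroxidases and of hepcidin control, 4 were higher and 2 lower at 48 hours, and 4 higher and 3 lower at 7 days (medians 0.39 and 0.71), against 54.6% and 56.8% of all tested genes called. Without replicate 2, 5 were higher and 4 lower at 7 days. Erfe, the hormone erythroferrone that lowers hepcidin, rose from 79.1 ± 3.82 to 361 ± 16.8 normalized counts at 48 hours (log2 fold change 2.19) and by 1.81 at 7 days. Cp, the ferroxidase ceruloplasmin, rose by 1.79 and 1.27. Id1, a target of BMP signaling, fell by 0.20 and 1.01. Smad7, an inhibitor of that signaling on chromosome 18, rose by 0.67 at 48 hours (0.82 without replicate 2) and had a value of 0.15 at 7 days (FDR 0.309).

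Of 16 genes of heme metabolism, all tested, 4 were higher and 9 lower at 48 hours, and 6 higher and 7 lower at 7 days (medians −0.37 and 0.08), against 54.6% and 56.8% called over all tested genes. Without replicate 2, 5 were higher at 48 hours. Alad, the second enzyme of heme synthesis, fell from 2759 ± 117 to 1185 ± 16.6 at 48 hours (−1.22) and from 3067 ± 107 to 831 ± 39.4 at 7 days (−1.89). Cpox, a later enzyme, rose by 1.05 and 0.99. The heme oxygenase gene Hmox2 (−0.88 and −0.72) and the heme transporter gene Slc48a1 (−0.75 and −0.96) were lower at both times. Hmox1, the other heme oxygenase gene of the list, was higher at both times (0.64 and 0.21), and is named after its value was seen. Without replicate 2, the values at 48 hours of Cpox, Hmox2 and Slc48a1, which lie in the lowered part, were 1.18, −0.72 and −0.62.

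Of 18 genes of mitochondrial iron and iron-sulfur clusters, all tested, 8 were higher and 4 lower at 48 hours, and 6 higher and 7 lower at 7 days (medians 0.11 and −0.09), beside 54.6% and 56.8% called over all tested genes. Without replicate 2, the counts were 10 higher and 5 lower at 48 hours and 6 higher and 8 lower at 7 days. Nfu1, an iron-sulfur cluster carrier, rose from 691 ± 16.96 to 1807 ± 67.2 at 48 hours (1.39) and from 696 ± 25.2 to 2102 ± 23.8 at 7 days (1.59), and the cochaperone gene Hscb rose by 0.46 and 1.198. Fdxr, ferredoxin reductase, fell by 0.78 and 1.55, and Abcb8, a transporter of the mitochondrial inner membrane, by 0.75 and 0.89.

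Of 3 other mRNAs that carry an iron-responsive element, 1 was higher at 48 hours, and 1 higher and 1 lower at 7 days. Cdc42bpa, a kinase gene, rose by 1.21 and 0.61. The gene that was lower at 7 days was Alas2, the erythroid enzyme that starts heme synthesis, named after its value was seen (log2 fold change −0.70, FDR 0.0087).

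**Figure D5:**
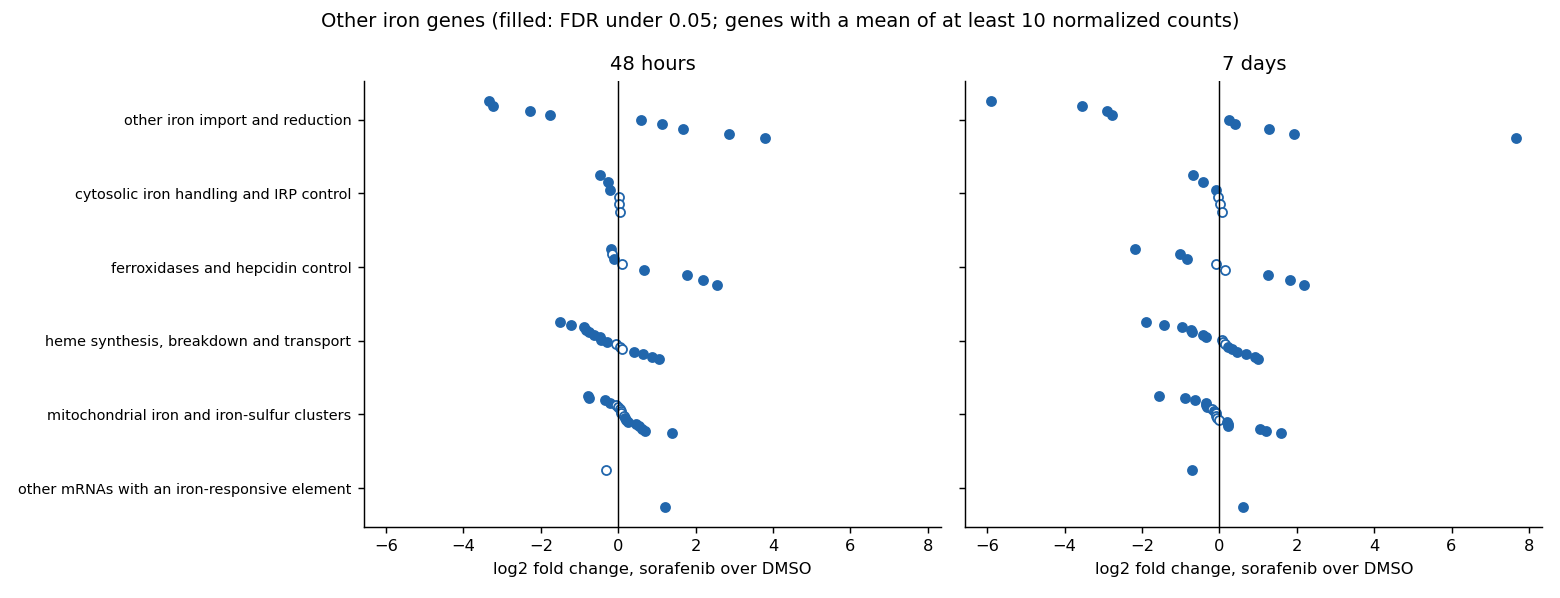
Log2 fold changes of the other iron genes averaging 10 normalized counts or more, at 48 hours (left) and 7 days (right), by list. Each point is a gene, filled where the FDR was under 0.05. Genes of import and reduction spread most widely to both sides, and the point farthest to the right at 7 days is Lcn2 (7.67), named after its value was seen and with 0 normalized counts on average in the DMSO libraries of 7 days, so that its fitted value is no measure of size.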

How the data were processed

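Per the paper's methods and the labels, libraries were made with the Illumina Stranded mRNA Prep kit and aligned to GRCm39 with STAR 2.7.1a. The submitters' processing notes also name featureCounts 2.0.6 and DESeq2 1.40.2. The strand setting and annotation are not given in the sources used here. The authors deposited unnormalized read counts for 40840 genes in 16 libraries, which were used as deposited.

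Genes under 10 counts in total were removed (20396), as the authors did. The remaining 20444 were fitted in R 4.3.3 with edgeR 4.0.16 (TMM normalization, quasi-likelihood test, 1 coefficient per group). SEs were derived from the p-values. Single values had an exact two-sided permutation test, whose smallest p is 0.0286 for 4 libraries against 4 and 0.0571 for 4 against 3. DESeq2 1.42.0 and limma 3.58.1 (voom) were alternatives, beside other normalizations, filters, thresholds, subsets and a replicate block. Gene positions came from GENCODE vM39, in which 32251 genes had 1 position. Levels per kilobase used the main transcript, and the union of exons was an alternative added after seeing the data.

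The members and lists were chosen with earlier results of these data known, and some genes are not reported here. Named genes were all 10 members, the 2 genes most like each abundant member, and the 3 genes of each other list with the largest absolute log2 fold change at each time among genes averaging 100 normalized counts or more. The steps were tested on simulated data. Between any pair of replicates, the spread exceeded counting error (lowest chi-square per gene 1.58). The highest values were those of DMSO 7 days replicate 4, at 53.1, 70.1 and 71.6 against replicates 1, 2 and 3. Replicates 1, 2 and 3 had 1.94 to 3.21 among themselves. Sorafenib 48 hours replicate 2 had 32.6 to 38.1 against its group, and pairs of DMSO 48 hours ran from 5.09 to 42.7. The causes were not tested. Library totals were 24002696 to 28617629 (DMSO 48 hours), 16586254 to 27352812 (sorafenib 48 hours), 23279342 to 29654546 (DMSO 7 days) and 22302847 to 30828427 (sorafenib 7 days). Overlap with lncRNA genes on the opposite strand was annotated for Tfrc, Slc11a2, Fth1, Ncoa4, Slc40a1 and Hamp, Ftl1 overlaps a miRNA gene on its own strand, and Hamp has a close paralog, so their counts are uncertain to that extent.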

Additional observations from a re-analysis of the deposited data

Results flagged for a closer look

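In 116 groups of 4 libraries, over 29 genes, 9 held a library far from the other 3 by Dixon's criterion, which chance meets in about 1 in 20 groups. In 4 of these the library was sorafenib 48 hours replicate 2, with normalized counts of 925 for Slc11a2, 11606 for Fth1, 3387 for Glrx3 and 9064 for Pcbp2. Glrx3 lies on chromosome 7, outside the lowered part, and replicate 2 was the high library there. The others were DMSO 7 days replicate 1 for Slc11a2 (1615), sorafenib 7 days replicate 1 for Ireb2 (4056) and Pcbp1 (8448), sorafenib 7 days replicate 2 for Slc48a1 (1504) and DMSO 7 days replicate 2 for Steap1 (539).

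The response to sorafenib differed between 7 days and 48 hours, by edgeR's test of the difference at an FDR under 0.05, for 7 members. The log2 fold change at 7 days minus that at 48 hours was 1.19 for Tfrc, 1.95 for Tfr2, 1.00 for Steap3, −0.24 for Ftl1, 0.35 for Ncoa4, −0.55 for Slc40a1 and −0.29 for Ireb2. Among the other named iron genes it was −0.67 for Alad, −0.61 for Cdc42bpa, −0.52 for Cp, −0.78 for Fdxr, 0.74 for Hscb, −0.82 for Id1, 0.21 for Nfu1, −0.20 for Pcbp1, −0.52 for Smad7, −0.94 for Steap1, −0.40 for Steap2 and −1.13 for Trf.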

How the results depend on the processing

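Over the members, 828 values under an alternative kept their direction and side of the threshold, 17 passed the threshold anew, 24 no longer passed it and 9 changed sign. The sign changed for Slc11a2 at 48 hours with total counts only (−0.054), at least 10 counts in every sample (−0.020) and only the 8 libraries of the time point (−0.0049), and it ranged from −0.058 to 0.129 with 1 library left out. Tfr2 at 48 hours ranged from −0.33 to 0.036. Ireb2 was called at 48 hours with total counts only (−0.11, FDR 0.0196), with at least 10 counts in every sample (−0.08, FDR 0.0212) and without DMSO 48 hours replicate 3 or 4 or sorafenib 48 hours replicate 2 (log2 fold change −0.09 to −0.02 over all libraries left out). Slc11a2 was called at 7 days with limma voom (−0.17, FDR 0.000438) and with only the 8 libraries of the time point (−0.17, FDR 6.41e-06). The DMSO comparison called Ireb2 in 6 alternatives. An added threshold of an absolute log2 fold change of 1 left 3690 genes at 48 hours, 4202 at 7 days, 1965 for the difference and 2242 for DMSO, of which 1, 2, 2 and 1 were members. With the union of exons, Ftl1 was 4.08 times Fth1 per kilobase in DMSO at 48 hours, against 1.49. The causes of these changes were not tested.

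Deviations from the group mean in libraries of the same replicate number correlated by −0.0497 to 0.0144 at 48 hours and −0.00564 to 0.128 at 7 days. For unlike numbers the ranges were −0.0401 to 0.0742 and −0.167 to 0.115. Such weak correlations do not settle whether the numbers pair the libraries. With the replicate block, 10644, 11027, 6987 and 9871 genes and 5, 8, 7 and 8 members were called for 48 hours, 7 days, their difference and DMSO. Depth limits Tfr2 and Hamp.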
